A study of Rattus norvegicus with 8 samples.

Results

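Hcn4 encodes the hyperpolarization-activated, cyclic nucleotide-gated channel that carries most of the funny current of the sinoatrial node. It is 1 gene, ENSRNOG00000009450, of the 32285 in the count table. It was chosen for its role in pacemaking and because it was lower in rats with heart failure with preserved ejection fraction (HFpEF), so its values in that comparison are a description and carry no test. The table lists genes by identifier only. The name Hcn4 came with the choice of the gene and could not be checked, because the reference gene table holds 0 Ensembl identifiers and so offers none to look up.

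The node was dissected from Dahl/Salt Sensitive rats (SS/JrHsdMcwiCrl), an inbred strain in which dietary salt raises blood pressure. Control rats (4 libraries) received chow with 0.4% NaCl and HFpEF rats (4 libraries) chow with 8% NaCl, each for 11 weeks, and ages are not given in the labels. Salt intake and heart failure differed together between the groups and cannot be told apart. The labels do not say whether each library came from a separate animal, so the SDs and p-values here reflect only how far these libraries spread, which may be technical. Total counts were 35945522 to 38889395 in Control and 31774820 to 37180059 in HFpEF. Markers of pacemaker cells and of other cell types were not analysed here, because the identifiers were not paired with symbols, so the labelled tissue was not checked against them.

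HCN channels are unusual among voltage-gated channels in opening when the membrane becomes more negative. They then pass sodium and potassium ions, with a net inward current that depolarises the pacemaker cell between beats. Cyclic AMP binds the channel's intracellular domain and eases its opening, which is one way in which sympathetic and vagal input set the heart rate. Hcn4 is the main HCN gene of the mammalian node and is used as a marker of pacemaker cells.

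Hcn4 was a highly counted gene in the node of both groups, and its level was 37.3% lower in HFpEF. The authors' expected counts were 13802, 14581, 13150 and 11775 in Control replicates 1 to 4, and 9392, 6161, 7429 and 8184 in HFpEF replicates 1 to 4. All 8 values were whole numbers (within 0.005), as they were for 67.8% of the 16313 tested genes. Every Control count was above every HFpEF count.

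Normalised counts (CPM, counts scaled to a common library total, here with TMM factors that correct for differences in composition) were computed next. Hcn4 stood at 374, 392, 345 and 328 CPM in Control replicates 1 to 4. In HFpEF replicates 1 to 4 it stood at 258, 195, 225 and 224 CPM. Control replicate 2 was highest and HFpEF replicate 2 lowest, and the groups did not overlap. Control libraries averaged 359 ± 28.7 CPM and HFpEF libraries 225 ± 25.6 CPM (SD, n = 4 each). The difference of the means, 134 CPM, was larger than either SD, and the lowest Control library was 1.27 times the highest HFpEF library. It follows that the HFpEF library was lower in each of the 16 pairs of a Control and an HFpEF library. The median fold over these pairs, Control over HFpEF, was 1.60.

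**Figure D1:**
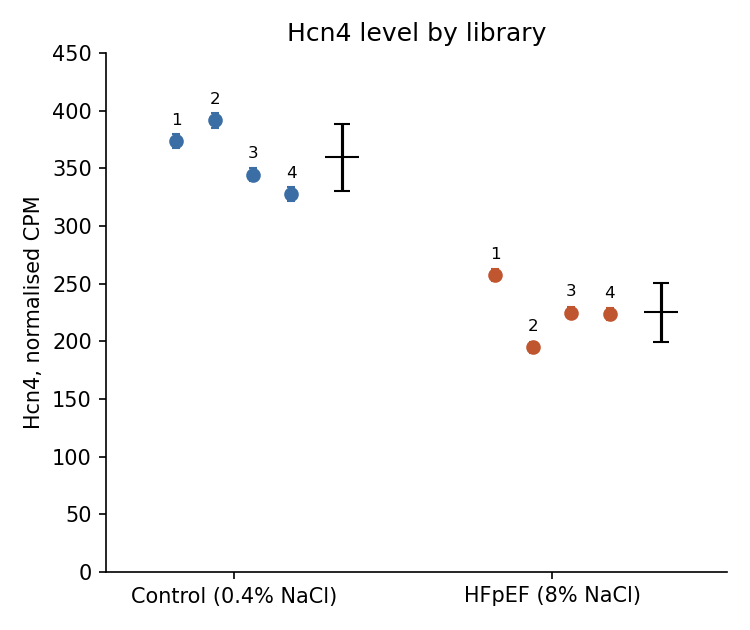
Normalised CPM of Hcn4 (y axis) in each Control and HFpEF library (points, labelled by replicate; bars are exact 95% Poisson intervals, which cover counting error only), with each group's mean and SD in black. The 4 Control libraries sit between 328 and 392 CPM, above the 4 HFpEF libraries at 195 to 258 CPM.

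Fitted with edgeR, Hcn4 had a log2 fold change, HFpEF over Control, of -0.67 (standard error 0.09). All 4 HFpEF libraries lay below all 4 Control libraries in 5.73% of the tested genes, and edgeR called 0.398% of the tested genes (65) lower in HFpEF, Hcn4 among them. Nothing is read from either share or from the call of Hcn4 in any fit, since the gene was chosen on this comparison. Hcn4 was not among the genes called without Control replicate 1, where its log2 fold change was -0.66, or without Control replicate 3, where it was -0.69. It was also not among them with the replicate number as a block (-0.68). In those 3 fits edgeR called 1, 0 and 0 genes lower in all, with 2403, 2522 and 2568 genes at an unadjusted p under 0.05 in either direction. In RNA from whole tissue, fewer pacemaker cells and less Hcn4 RNA per cell cannot be told apart.

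**Figure D2:**
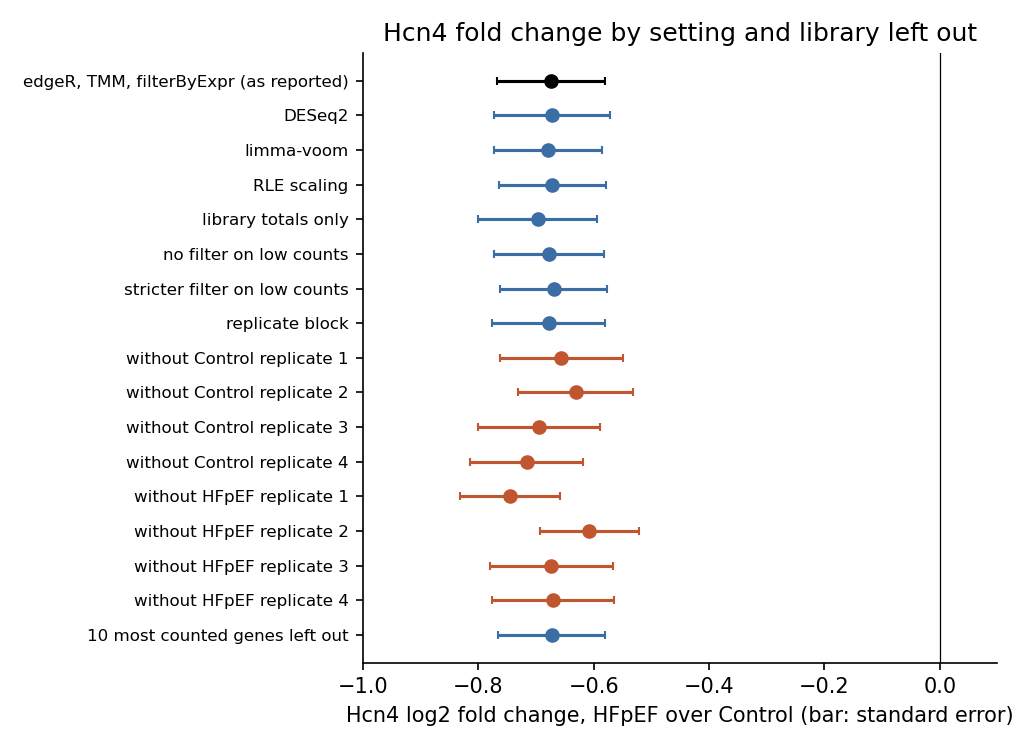
Hcn4 log2 fold change, HFpEF over Control (x axis, bars are standard errors), as reported (black), under other settings (blue; the lowest entry was chosen after seeing the data) and with each library left out (orange). All values lie below 0, from -0.75 without HFpEF replicate 1 to -0.61 without HFpEF replicate 2. With 1 library left out, the sign follows from groups that did not overlap, and the other settings reuse the same libraries.

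HFpEF libraries differed among themselves in how low Hcn4 was. Relative to the Control mean, Hcn4 was 28.3% lower in HFpEF replicate 1, 45.8% lower in replicate 2, 37.4% lower in replicate 3 and 37.8% lower in replicate 4. The coefficient of variation was 11.4% in HFpEF and 8.0% in Control. Counting error was far smaller, at 0.83% to 1.27% of the count per library, so nearly all of this spread lay between libraries.

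Ordered by normalised CPM, only HFpEF replicates 3 and 4 were neighbours whose exact 95% Poisson intervals overlapped (220 to 230 and 219 to 229 CPM). Their order rests on the scaling. In CPM of the plain library total, without TMM factors, HFpEF replicate 4 stood at 234 CPM and replicate 3 at 213 CPM, and their TMM factors were 1.05 and 0.95. The other neighbours differed by more than counting error, which does not say that they differ beyond the spread between libraries of a group.

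Depth ran alongside Hcn4 at both ends of the HFpEF group. HFpEF replicate 1 had that group's highest total (37180059) and highest Hcn4 level, and HFpEF replicate 2 had its lowest total (31774820) and lowest Hcn4 level. In Control the order differed, since the library with the highest total, Control replicate 3 (38889395), had the second lowest Hcn4 level. The part of depth in these values was not tested.

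The rank of Hcn4 by expected count needs no scaling between libraries. Among genes with a count, Hcn4 ranked 193, 177, 225 and 241 in Control replicates 1 to 4, where 1 is the most counted gene. In HFpEF replicates 1 to 4 it ranked 340, 532, 435 and 410. Its rank averaged 209 ± 29.2 over the Control libraries and 429 ± 79.4 over the HFpEF libraries (SD, n = 4 each), with no overlap between the groups. Hcn4 thus lay within the top 1.19% of counted genes in every Control library and between the top 1.68% and the top 2.61% in the HFpEF libraries. Ranks compare read counts, not levels per transcript length, because gene lengths were not used.

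**Figure D3:**
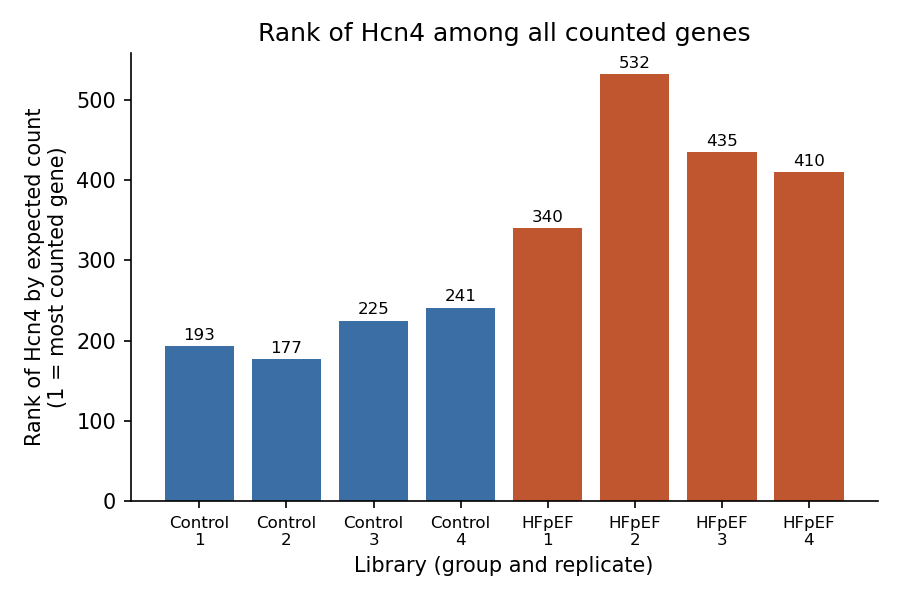
Rank of Hcn4 by expected count (y axis, 1 is the most counted gene) in each Control (blue) and HFpEF (orange) library. Ranks run from 177 to 241 in Control and from 340 to 532 in HFpEF.

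In the order of counts, Hcn4 stood above a set of genes in Control and below them in HFpEF, and no gene showed the reverse. Of the 32284 other genes, 172 had more counts than Hcn4 in all 8 libraries and 31717 had fewer in all 8. A set of 79 genes had fewer counts than Hcn4 in every Control library and more in every HFpEF library, while 0 genes did the reverse. The 79 genes had a median log2 fold change of 0.05 (range -0.27 to 1.40). Among them, 48 had a value above 0 and 31 one below 0, and edgeR called 4 higher and 1 lower. Over all tested genes it called 1.54% higher and 0.398% lower. The 79 genes were selected on the same libraries, so these counts describe how the rank of Hcn4 moved and test nothing.

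Beside genes with similar counts, the difference in Hcn4 was large. Of 682 tested genes within 2-fold of its mean level (292 CPM over the 8 libraries), Hcn4 included, 3 had a log2 fold change as low as that of Hcn4 or lower. The median log2 fold change of the 682 was -0.02, with quartiles of -0.11 and 0.10, and that of all 16313 tested genes was 0.00. Of all tested genes, 339 (2.08%) had a value as low or lower, Hcn4 included. Among the 288 genes with a mean level at or above that of Hcn4, itself included, 7 did. All 4 HFpEF libraries lay below all 4 Control libraries in 71 of the 682 genes (10.4%), Hcn4 included, and above them in 44. Over all tested genes the share below was 5.73%. These positions and shares come from the comparison on which Hcn4 was chosen.

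**Figure D4:**
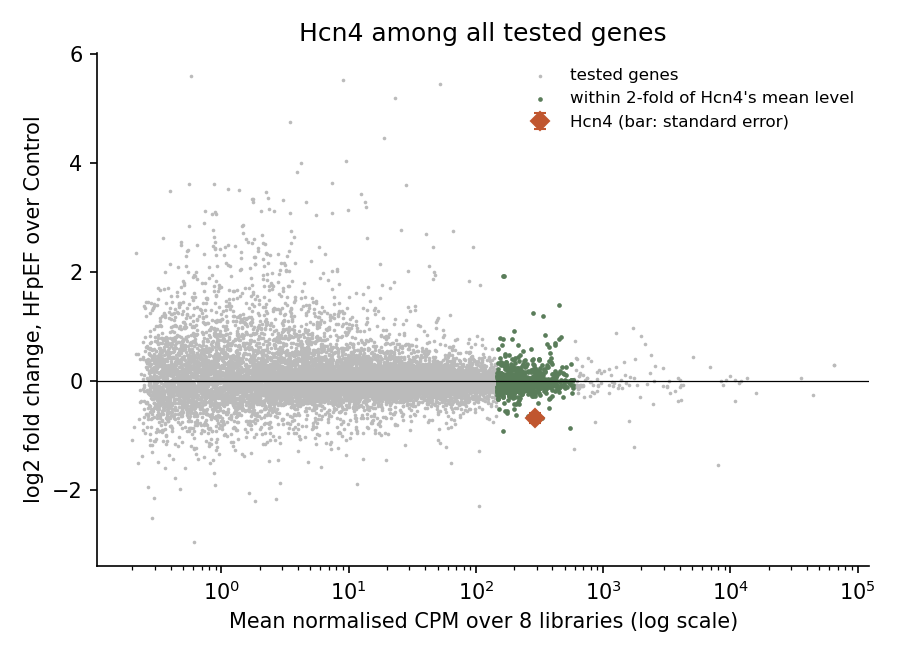
Log2 fold change, HFpEF over Control (y axis), against mean normalised CPM (x axis, log scale) for 16313 tested genes (grey), the 682 genes within 2-fold of the mean level of Hcn4 (green) and Hcn4 (orange diamond, bar is the standard error). Hcn4, at 292 CPM and -0.67, lies near the lower edge of the green genes.

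The spread of Hcn4 within groups was above the median for its level, more so in Control. Its within-group SD on the log2 CPM scale was 0.14, against a median of 0.12 for the 682 genes, of which 62.2% had a smaller one. In Control its SD was 0.12 (median of the 682 genes 0.07), and 73.8% of the 682 had a smaller one. In HFpEF it was 0.16 (median 0.14), and 59.2% had a smaller one. The median gene of this level thus also spread more in HFpEF than in Control.

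To find genes whose level followed Hcn4 from library to library, each gene's log2 CPM was set against its own group mean, which takes out the difference between groups. Hcn4 deviated by 0.06, 0.13, -0.06 and -0.13 in Control replicates 1 to 4 and by 0.20, -0.20, 0.00 and 0.00 in HFpEF replicates 1 to 4. Over 8 libraries and 7150 genes with a mean of at least 16 CPM, 29 genes had a Pearson r with Hcn4 above 0.9 and 26 had one below -0.9. With so many genes and only 8 libraries, high values of r can arise without any link, so r is given as a description.

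The gene most like Hcn4 was ENSRNOG00000045689, with a Pearson r of 0.994 and a Spearman rho of 1. Without HFpEF replicates 1 and 2, where Hcn4 lay farthest from its group mean, r was 0.991. It stood at 34.2, 35.4, 32.7 and 31.6 CPM in Control replicates 1 to 4 and at 32.6, 26.9, 30.3 and 29.8 CPM in HFpEF replicates 1 to 4, so that its groups overlapped. Between the groups it differed by -0.16 on the log2 scale (standard error 0.07; edgeR adjusted p = 0.238), which did not pass the threshold of 0.05. Its expected counts were not whole in all 8 libraries, so its level is uncertain, since RSEM gives such values where reads fit more than 1 gene.

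ENSRNOG00000010104 came next, with a Pearson r of 0.957, a Spearman rho of 0.976 and an r of 0.881 without HFpEF replicates 1 and 2. It averaged 18.7 ± 0.925 CPM over the Control libraries and 18.5 ± 1.54 CPM over the HFpEF libraries (SD, n = 4 each), and its log2 fold change was -0.02 (standard error 0.07; edgeR adjusted p = 0.921). It moved with Hcn4 from library to library within the groups, while its group means differed by less than their SDs. Which 5 genes came closest changed with the libraries: with 1 library left out in turn, 1 to 3 of them stayed among the closest 5. ENSRNOG00000045689 kept an r of at least 0.991 in each of these 8 fits, and ENSRNOG00000010104 one of at least 0.929. Both genes were picked for their r over the same libraries, so r with libraries left out is no further support for a link.

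**Figure D5:**
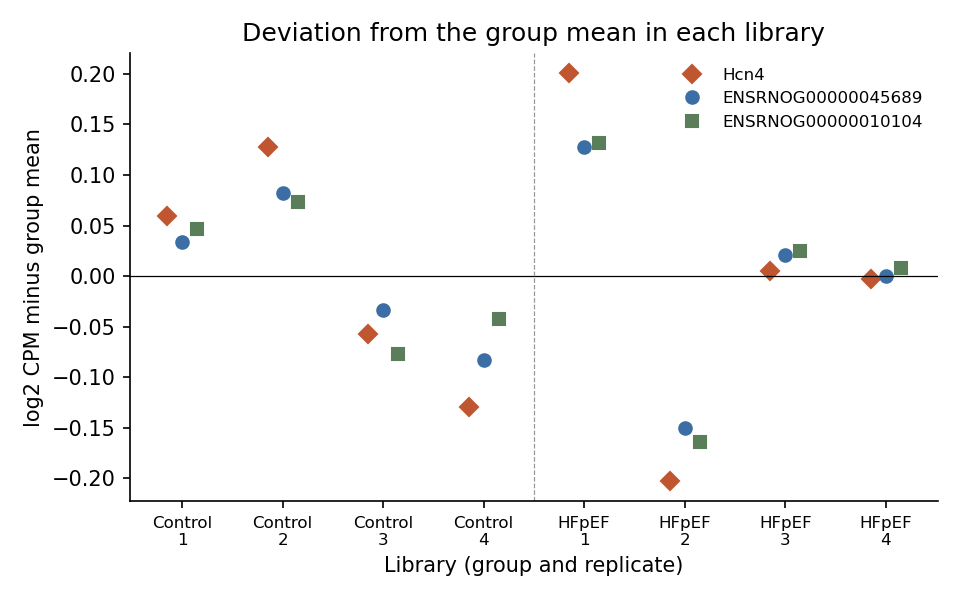
Log2 CPM minus the group mean (y axis) in each library (x axis) for Hcn4 (diamonds), ENSRNOG00000045689 (circles) and ENSRNOG00000010104 (squares), the 2 genes with the highest within-group r. In HFpEF replicate 1 all 3 genes lie above their group mean and in HFpEF replicate 2 all 3 lie below it, by 0.20 for Hcn4 in each.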

How the data were processed

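Total RNA from 8 samples of sinoatrial node, depleted of ribosomal RNA, was sequenced, per the labels' protocols. The authors deposited 1 table of expected counts per Ensembl gene, without normalization. Bowtie2 2.1.0, RSEM 1.2.15 and build rn6 come from the submitters' processing notes; the strand setting, read filters and annotation release were not given in the sources used, so reads of overlapping or antisense genes may not have been told apart. Libraries were grouped by title.

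Expected counts were rounded, genes kept with filterByExpr (16313 genes, 99.95% of counts) and libraries scaled by TMM. The groups were compared with the quasi-likelihood test of edgeR 4.0.16 in R 4.3.3, two-sided, Benjamini-Hochberg adjusted over all tested genes, threshold 0.05. Standard errors derive from its F statistic. The fit was also run on counts simulated with its own estimates of variance, and that run is not used as support here. Likeness used log2 CPM with a prior count of 2. Alternatives used DESeq2 1.42.0, limma 3.58.1 (voom), other scalings and filters, a replicate block and each library left out.

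The gene and the 130 symbols of lists were chosen with earlier results of these data known; the lists were not run, since the reference gene table holds 0 Ensembl identifiers. The rule named, without symbols, Hcn4 and up to 2 rising and 2 falling genes among the 5 most like it (0 of the 5 were higher in HFpEF). Within a group, no pair of libraries agreed to within sampling noise (chi-square of 18.3 to 82.4 per degree of freedom), and all 8 were used.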

Additional observations from a re-analysis of the deposited data

How the results depend on the processing

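The log2 fold change of Hcn4 stayed negative and within 1 within-group SD (0.14) of -0.67 in all 16 alternatives. Across 8 settings it ran from -0.70 (library totals only) to -0.67 (stricter filter on low counts). With 1 library left out it ran from -0.75 to -0.61. Hcn4 was chosen on these libraries and its groups did not overlap, so the sign with 1 library left out was fixed in advance. Its mean rank ran from 198 to 220 in Control and from 395 to 459 in HFpEF with 1 library left out, and was the same among the tested genes alone. The background of called genes moved more. From 251 higher and 65 lower with edgeR, it went to 859 and 385 with DESeq2, to 140 and 29 with library totals only, and to 37 lower with limma-voom; the cause was not tested. Over the 8 fits without 1 library it ran from 21 to 234 higher and from 0 to 98 lower, with fewer samples in the test; the 0 came without Control replicate 3, where 2522 genes had an unadjusted edgeR p under 0.05. The replicate block left 6 higher and 0 lower genes by edgeR, with 2568 at an unadjusted p under 0.05. Same-numbered libraries deviated together with correlations of -0.14, -0.01, 0.04 and -0.35, and 1 of 8 libraries correlated best with its own number, and the numbers were therefore not used as a pairing. Of the 5 genes most like Hcn4, 3 stayed among the closest 5 by Spearman rho and 5 with a prior count of 0.5. With 1 library left out, 1 to 3 of them stayed. Among genes of at least 64 CPM 2 of them stayed, the only 2 that reach that level. This last result was fixed in advance, since the cut-off itself removed the others, ENSRNOG00000045689 and ENSRNOG00000010104 among them. Leaving out the 10 most counted genes was chosen after seeing the data. The fixed gene lists gave no value under any setting. Counting error was 0.83% to 1.27% of the Hcn4 count per library; no fit at matched depth was run.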

Other observations

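Among 20 sets of 4 library values (Hcn4 by count, CPM and rank, total counts, and the 5 genes most like Hcn4), none (0) had a library past Dixon's critical value, which with 4 values only an extreme library reaches. The nearest was the total count of Control replicate 3, 38889395 against 35945522 to 36504423 in the other Control libraries.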
